A study of Mus musculus with 6 samples.

Results

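The transcripts of 10 genes that encode activin subunits, bone morphogenetic proteins (BMPs), their secreted antagonists and a BMP target gene were examined in mouse melanomas grown at 2 body sites. The 10 genes were chosen by their symbols, Inhba, Inhbb, Fst, Fstl1, Fstl3, Bmp2, Bmp4, Bmp7, Grem1 and Id1, and all 10 were found among the 45777 genes of the deposited table. The tumors came from B16F10 cells, a pigmented melanoma line of C57BL/6 mouse origin, in Foxn1-/- hosts of 8 weeks, a genotype that leaves mice without a functional thymus. They grew either in the hind footpad (n = 3) or in the skin of the flank (n = 3), and no other treatment is named for either group. The methods of the study describe such grafts in C57BL/6J mice as well and do not name the host of the sequenced tumors, so the host given here is that of the labels. All 6 tumors derive from 1 cell line. The study counts its tumors by mouse, and its grafts placed cells at both sites of the same mouse, but neither the labels nor the methods say which footpad and flank tumors shared a mouse. The tumors of both sites were therefore compared without pairing, and the p-values below measure only the spread between these samples.

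Activins and BMPs are secreted dimers of the transforming growth factor beta superfamily. They bind pairs of type I and type II serine/threonine kinase receptors. Activin receptors phosphorylate Smad2 and Smad3, BMP receptors phosphorylate Smad1, Smad5 and Smad9, and either set then enters the nucleus with Smad4. Outside the cell the ligands meet binding proteins that keep them from their receptors, follistatin for activins and gremlin for BMPs among them, and several of these binding proteins are themselves induced by the ligands they bind. In skin, activin A is known from wound repair and from stromal cells around tumors, and the family as a whole is known for its part in hair follicle and pigment cell development.

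Sequencing gave 46529649 to 66364366 counted reads a tumor, with 21060 to 22607 genes seen at least once. Levels are given as CPM, read counts scaled to library size, after normalization by the trimmed mean of M-values (TMM), at which 3 reads correspond to 0.0438 to 0.0673 CPM, and levels of different genes are compared only as FPKM, fragments per kilobase scaled to library size. Of the 10 genes, 8 passed the filter on low counts and entered edgeR's quasi-likelihood test among 17210 genes, and Bmp7 and Grem1 did not. A gene was called where the Benjamini-Hochberg adjusted p was under 0.05 and the fold was 2 or more. Inhba, Inhbb, Fstl1, Fstl3 and Id1 were over the filter's level of 0.171 CPM in all 6 tumors, whereas Fst, Bmp2 and Bmp4 were over it in 3 footpad tumors and 1 flank tumor each. These last 3 were tested because of their footpad level, so the counts of genes that follow describe the tested genes and are no evidence for the group of 10.

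In footpad tumors, Fstl1 and Bmp2 were higher, by 5.41-fold and 9.84-fold, and none of the 10 genes was called lower. That is 2 of 8 tested genes called higher, where 2.89% of all genes tested were called higher and 0.872% lower. At an unadjusted p under 0.05, 6 of the 8 were higher and 0 were lower, where 14.8% of all genes tested were higher and 10.5% lower at the same cut, and DESeq2, which called 6.73% of all genes higher and 2.05% lower, also called 0 of the 8 lower and called 5 higher, adding Inhba, Fst and Id1. In 6 of the 8, Inhba, Fst, Fstl1, Bmp2, Bmp4 and Id1, every footpad tumor lay above every flank tumor, as did 17.5% of all genes tested, with 14.9% separated the other way. The median log2 fold change of the 8 was 2.59, against -0.004 over all genes tested. Inhbb and Fstl3 overlapped between the sites. With 5 tumors the number of calls varied over the whole table as well as among the 10. The share of all tested genes called higher was 0.145% without footpad 1, 3.62% without footpad 2, 0% without footpad 3, 1.3% without flank 1, 2.39% without flank 2 and 0.201% without flank 3, and a call lost or gained in 1 of these fits is to be read beside that share.

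**Figure D1:**
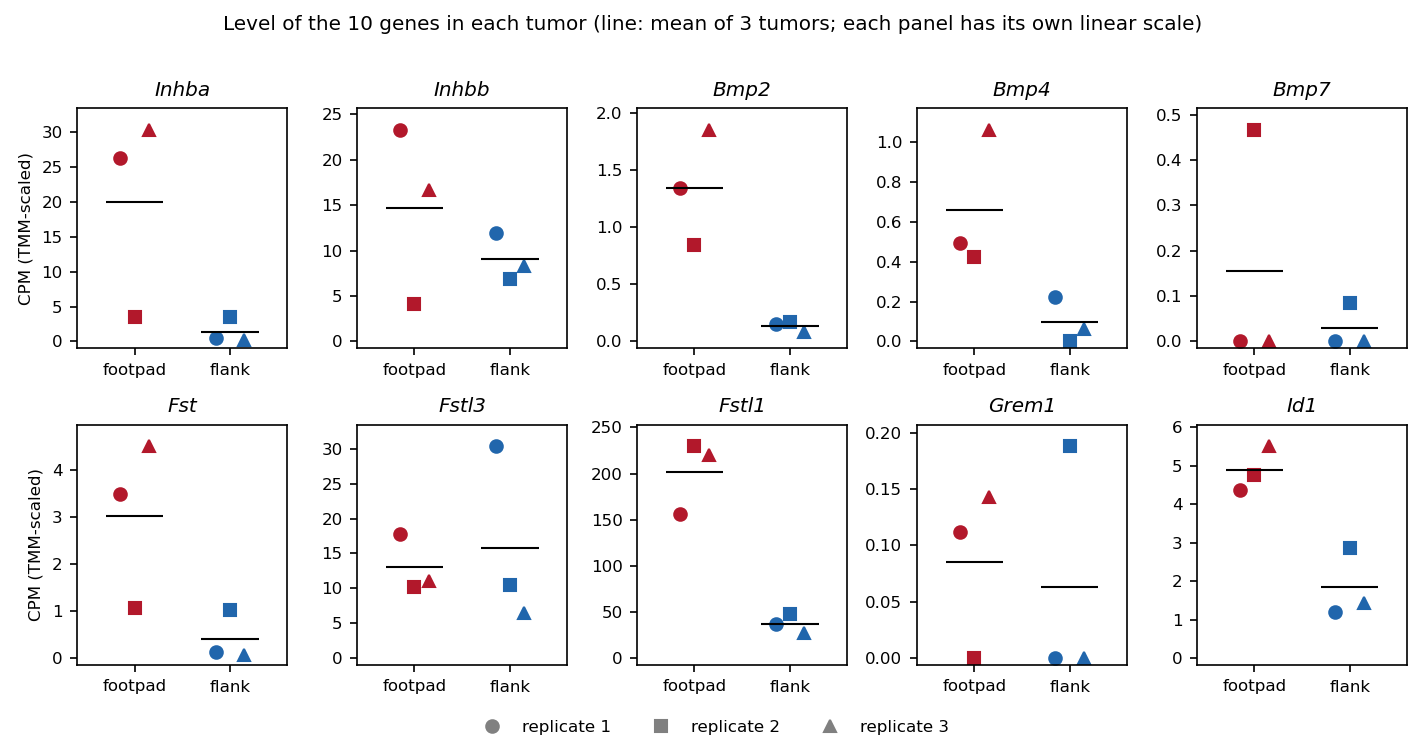
The level of each of the 10 genes in each tumor, in CPM on a linear axis that differs between panels, with footpad tumors in red, flank tumors in blue, marker shape giving the replicate and a line at the mean of 3 tumors. Fstl1 and Bmp2 separate clearly, while for Inhba and Fst the footpad 2 and flank 2 tumors lie side by side at 3.49 and 3.44 CPM and at 1.06 and 1.03 CPM.

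Per unit of length the 10 transcripts spanned a wide range. Mean FPKM over the 6 tumors was 29.8 for Fstl1, 6.4 for Fstl3, 3.17 for Id1, 2.42 for Inhbb, 0.848 for Inhba, 0.581 for Fst, 0.184 for Bmp2 and 0.160 for Bmp4. Grem1 at 0.0284 and Bmp7 at 0.0235 came last. The antagonists Fstl1 and Fstl3 were thus the most abundant of the 10 in the mean, and the BMP ligands and Grem1 were the scarcest. Within footpad tumors the ranges of Fstl3 and Id1 overlapped, the ranges of Inhba, Inhbb and Fst in FPKM overlapped one another, as did those of Bmp2 and Bmp4, so the order of these neighbours is not fixed.

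The sequences at the start of 3 of the genes with a window are shown, Fstl1 for the lowest adjusted p of the 8 genes and Inhba and Inhbb as the activin subunit genes whose ratio did not overlap between the sites. Each run is the RefSeq window of GRCm38.p6 from 250 bases before to 50 bases after a transcript start, 5′ to 3′ on the strand of the gene, at chr16:37776805-37777104 on the plus strand for Fstl1, chr13:16011601-16011900 on the plus strand for Inhba and chr1:119422199-119422498 on the minus strand for Inhbb. Starts differ between annotations. The Inhba window follows the GENCODE start, while the RefSeq gene begins upstream at 16004256, and the Fstl1 window follows the RefSeq start at 37777055, downstream of the GENCODE start given below, so what a window holds applies to that start only. Capitals mark a match to any of 5 motifs searched on both strands.
Fstl1: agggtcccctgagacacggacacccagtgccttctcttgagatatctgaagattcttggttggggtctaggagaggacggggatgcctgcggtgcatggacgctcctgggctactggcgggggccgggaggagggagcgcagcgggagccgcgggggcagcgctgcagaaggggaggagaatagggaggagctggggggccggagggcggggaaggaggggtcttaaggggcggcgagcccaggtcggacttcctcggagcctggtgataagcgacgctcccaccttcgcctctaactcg
Inhba: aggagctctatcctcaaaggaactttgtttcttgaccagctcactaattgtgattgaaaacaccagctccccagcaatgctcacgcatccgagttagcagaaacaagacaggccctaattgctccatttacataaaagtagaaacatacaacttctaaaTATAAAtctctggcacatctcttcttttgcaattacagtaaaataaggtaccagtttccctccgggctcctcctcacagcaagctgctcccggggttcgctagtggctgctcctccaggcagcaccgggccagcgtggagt
Inhbb: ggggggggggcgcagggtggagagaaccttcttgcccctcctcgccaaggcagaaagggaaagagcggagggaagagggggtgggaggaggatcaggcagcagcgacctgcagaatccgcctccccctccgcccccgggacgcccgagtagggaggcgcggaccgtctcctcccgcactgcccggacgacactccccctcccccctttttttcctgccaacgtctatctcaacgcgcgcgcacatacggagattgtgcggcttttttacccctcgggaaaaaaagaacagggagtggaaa

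The motifs were GGCGCC, a GC-rich element bound by Smad1 and Smad5, GTCTG, a Smad-binding element, GGAATG, bound by TEAD factors, TGANTCA, bound by AP-1, and TATAAA, the TATA box. No matches given here overlapped each other, and a window without a match says only that these letters are not in it. Over all 32817 windows of this length they occurred in 11.9%, 49.6%, 14.7%, 7.81% and 13.6%, in that order. The Inhba window held TATAAA at -91 from the start, and neither the Fstl1 nor the Inhbb window held any of the 5. Among the 6 of the 10 genes with a window, the Bmp4 window also held none, the Fstl3 window held GTCTG at -161 and at -14 and the TATA box on the opposite strand at -29, and the Grem1 window held GGCGCC at -78 and GTCTG on the opposite strand at -219 and at 18. The Inhba window was the poorest of the 6 in G and C, at 47.7% with 7 CpG dinucleotides, against 64.0% to 70.7% and 12 to 28 in the other 5 windows, and the median of all windows was 52.7% with 7. No window was found for Bmp2, Bmp7, Fst and Id1.

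Among the ligands, Inhba encodes the beta A subunit, whose dimer is activin A, and lies at chr13:16011851-16031621 on the plus strand of GRCm38. Its level was 26.4, 3.49 and 30.4 CPM in footpad tumors 1, 2 and 3 and 0.466, 3.44 and 0.272 CPM in flank tumors 1, 2 and 3. Footpad tumors 1 and 3 were far above all others, while footpad 2, from 239 reads, and flank 2, from 201 reads, differed by less than counting error, with exact 95% Poisson intervals of 3.06 to 3.96 CPM and 2.98 to 3.95 CPM. The mean was 20.1 ± 14.5 CPM in footpad and 1.39 ± 1.77 CPM in flank tumors (SD, n = 3), a log2 fold change of 3.85 with an SE of 1.13, which did not pass the test (edgeR adjusted p = 0.0891). Inhba was called without footpad 2 (log2 fold change 4.35, edgeR adjusted p = 0.0498) and without flank 2 (5.76, edgeR adjusted p = 0.0464), and in DESeq2 on all 6 tumors at an adjusted p of 0.0199. Over all its alternatives the adjusted p ranged from 0.0199 to 0.226.

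The other subunit gene, Inhbb, encodes beta B of activin B and lies at chr1:119415465-119422248 on the minus strand. It stood at 23.3, 4.14 and 16.6 CPM in footpad tumors and at 11.9, 6.89 and 8.28 CPM in flank tumors. Footpad tumor 2 was the lowest of all 6 and the other footpad tumors were the highest, so the groups overlapped. The mean was 14.7 ± 9.73 against 9.02 ± 2.58 CPM, with a log2 fold change of 0.70, an SE of 0.55 and an edgeR adjusted p of 0.459.

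On a per-length scale, the beta A to beta B ratio in FPKM was 0.348, 0.433 and 0.80 in footpad tumors and 0.0127, 0.154 and 0.00947 in flank tumors, so that every footpad tumor had more Inhba relative to Inhbb than any flank tumor. The length implied by the deposited FPKM for Inhba differed between tumors from 8826 to 16904 bases, where all its annotated exons cover 6390 bases, so FPKM of this gene does not rest on 1 fixed length. Recomputed as CPM per kilobase of annotated exons, a scale chosen after the data were seen, the ratio was 0.753, 0.560 and 1.22 in footpad tumors and 0.0261, 0.332 and 0.0219 in flank tumors. The order between the sites held on both scales, and in footpad 3 Inhba passed Inhbb on the second scale only.

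**Figure D2:**
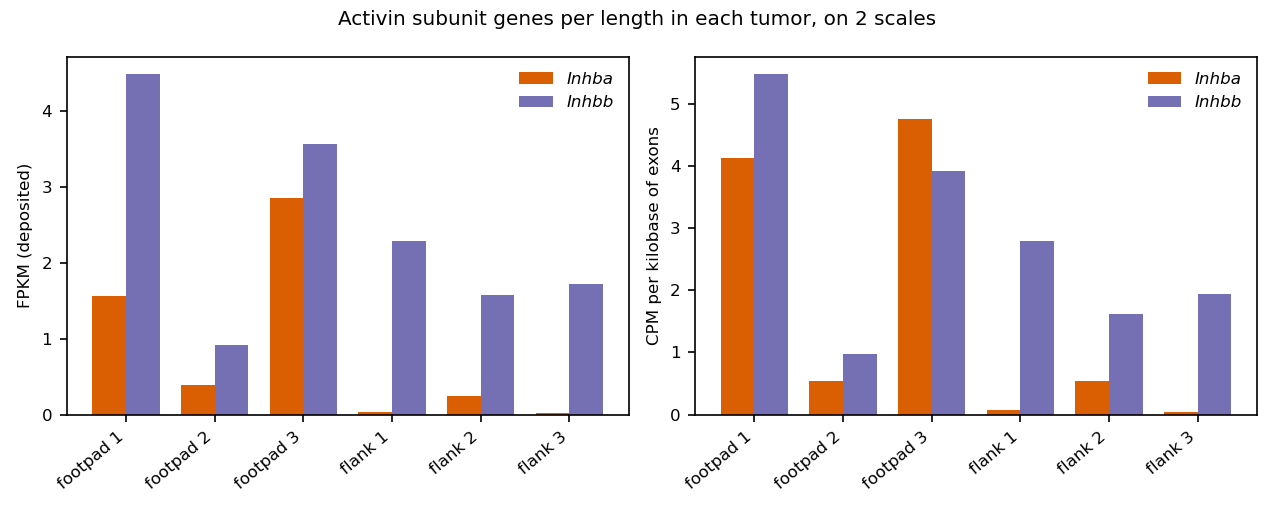
Inhba and Inhbb in each tumor as bars from 0, in deposited FPKM on the left and in CPM per kilobase of annotated exons on the right. Inhbb is detected in all 6 tumors at 0.912 to 4.48 FPKM, while Inhba is low in flank tumors 1 and 3 at 0.0289 and 0.0163 FPKM.

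Bmp2, a BMP known for inducing bone and cartilage formation, was low but separated at the sites. It lies at chr2:133552159-133562885 on the plus strand. Its counts were 60, 58 and 91 in footpad tumors and 9, 10 and 5 in flank tumors, which is 1.35, 0.846 and 1.86 CPM against 0.155, 0.171 and 0.0799 CPM. Every footpad tumor held more than every flank tumor and the lowest of the former exceeded the highest of the latter beyond their counting intervals of 0.642 to 1.09 CPM and 0.0820 to 0.315 CPM. The mean was 1.35 ± 0.506 against 0.135 ± 0.0487 CPM, a log2 fold change of 3.30 with an SE of 0.52 (edgeR adjusted p = 0.0233). The call was lost without footpad 1 (edgeR adjusted p = 0.0845), footpad 3 (0.116), flank 1 (0.0545) or flank 3 (0.0887), with the log2 fold change between 3.0 and 3.55 over the 6 omissions, and on log2(FPKM + 1), where limma gave 0.37 and called 1.57% of all genes higher. The adjusted p ranged from 2.17e-05 in DESeq2 to 0.116 over its alternatives.

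Bmp4, which encodes a BMP that patterns the early embryo and the hair follicle, lies at chr14:46383520-46390669 on the minus strand. It had 22, 29 and 52 reads in footpad tumors and 13, 0 and 4 in flank tumors, giving 0.494, 0.423 and 1.06 CPM against 0.224, 0 and 0.0639 CPM. The 0 in flank 2 allows up to 0.0513 CPM at the limit of 3 reads, and 0.0631 CPM is the upper end of its exact interval. The groups did not overlap, but the log2 fold change of 2.75 had an SE of 1.02 and did not pass the test (edgeR adjusted p = 0.148). The third BMP, Bmp7, which is needed for kidney and eye formation, lies at chr2:172868012-172940321 on the minus strand and was seen in 1 tumor of each site, with 32 reads in footpad 2 (0.467 CPM) and 5 reads in flank 2 (0.0855 CPM). The absence of reads in the other 4 tumors allows up to 0.0479 to 0.0673 CPM at the limit of 3 reads.

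Of the antagonists, Fstl1, follistatin-like 1, a secreted glycoprotein of mesenchymal cells that can bind BMPs, had the lowest adjusted p of the 8 tested genes. It lies at chr16:37776873-37836514 on the plus strand. The counts were 6958, 15749 and 10775 in footpad tumors and 2139, 2786 and 1718 in flank tumors, equal to 156.2, 229.7 and 220.0 CPM against 36.9, 47.7 and 27.5 CPM. The lowest footpad tumor was thus well above the highest flank tumor. The mean was 202 ± 39.9 against 37.3 ± 10.1 CPM, with a log2 fold change of 2.44, an SE of 0.25 and an edgeR adjusted p of 0.00926. Leaving out each tumor in turn kept the log2 fold change between 2.25 and 2.65 and kept the call in 5 of 6 cases, and it was lost without footpad 3 (2.37, edgeR adjusted p = 0.0588), where no gene of the table was called. Over all its alternatives the adjusted p ranged from 1.63e-19 in DESeq2 to that value.

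Fst encodes follistatin, which binds activins nearly irreversibly, and lies at chr13:114452290-114458951 on the minus strand. Its pattern over the tumors followed that of Inhba, with 3.50, 1.06 and 4.51 CPM in footpad tumors and 0.121, 1.03 and 0.0639 CPM in flank tumors. Footpad 2 and flank 2, from 73 and 60 reads, could not be told apart by counting error, and in FPKM their order turned over, at 0.361 and 0.387. The mean was 3.03 ± 1.77 against 0.404 ± 0.540 CPM, a log2 fold change of 2.90 with an SE of 1.03 that did not pass the test (edgeR adjusted p = 0.136). Without flank 2 it was called, at a log2 fold change of 5.0 (edgeR adjusted p = 0.0376), and DESeq2 called it on all 6 tumors at an adjusted p of 0.0167, the lowest of a range that reached 0.311 over its alternatives.

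Fstl3, follistatin-like 3, which also binds activins, lies at chr10:79777272-79782630 on the plus strand and overlapped between the sites. Its level was 17.8, 10.2 and 11.1 CPM in footpad tumors and 30.4, 10.5 and 6.50 CPM in flank tumors. Flank tumor 1 was the highest of all and flank tumor 3 the lowest. The log2 fold change was -0.28 with an SE of 0.54 (edgeR adjusted p = 0.783), and it turned to 0.61 when flank 1 was left out. Grem1, gremlin, an antagonist of BMP2, BMP4 and BMP7, lies at chr2:113746164-113758646 on the minus strand and was close to the limit of 3 reads, with 5, 0 and 7 reads in footpad tumors and 0, 11 and 0 reads in flank tumors, at most 0.188 CPM.

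Id1 encodes an inhibitor of helix-loop-helix factors and is a direct target of Smad1 and Smad5. It lies at chr2:152736251-152737410 on the plus strand. Its level was 4.38, 4.75 and 5.51 CPM in footpad tumors and 1.21, 2.86 and 1.44 CPM in flank tumors. The footpad tumors were close to each other and all above the flank tumors, of which flank 2 was the highest. The mean was 4.88 ± 0.578 against 1.83 ± 0.893 CPM, a log2 fold change of 1.41 with an SE of 0.38 that missed the threshold (edgeR adjusted p = 0.0727). It was called without flank 2, at 1.88 (edgeR adjusted p = 0.0376), and by DESeq2 at an adjusted p of 0.00552, with a range up to 0.214 over its alternatives.

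**Figure D3:**
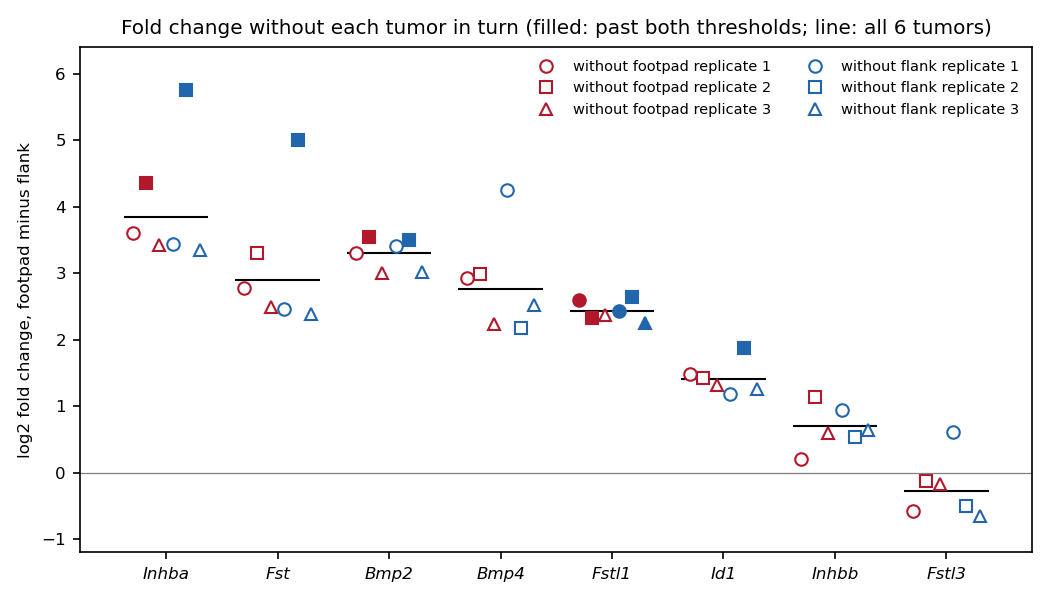
The log2 fold change of each tested gene of the 10 when 1 tumor is left out, with colour and shape giving the omitted tumor, filled symbols passing both thresholds and a black line at the value from all 6 tumors. Fstl1 stays between 2.25 and 2.65, while Inhba runs from 3.35 to 5.76 and Fst from 2.39 to 5.0, each highest without flank 2.

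Set against each other as FPKM, the follistatins Fst and Fstl3 together exceeded the activin subunits Inhba and Inhbb together in all 6 tumors, with ratios of 1.42, 4.02 and 1.05 in footpad tumors and 5.52, 3.09 and 1.71 in flank tumors. The groups overlapped. Per kilobase of annotated exons the ratio fell under 1 in footpad tumors 1 and 3, at 0.839 and 0.637, so which side was the more abundant depends there on the scale. Fst over Inhba was 0.710, 0.915 and 0.554 in footpad tumors against 1.16, 1.6 and 1.27 in flank tumors, on the FPKM scale whose length for Inhba is not fixed. Per kilobase of annotated exons, a scale chosen after the data were seen, it was 0.185, 0.425 and 0.207 against 0.361, 0.416 and 0.328, so that the groups overlapped and Fst lay under Inhba in all 6 tumors, and neither the separation nor the side of 1 in flank tumors held on both scales. Fstl1 exceeded the sum of Bmp2, Bmp4 and Bmp7 in every tumor, by 59.2 to 113 times in footpad and 67.8 to 192 times in flank tumors. Grem1 over the same sum was 0.0798, 0 and 0.0549 in footpad tumors, and 0, 1.18 and 0 in flank tumors, from few reads.

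Around these genes, 94 further gene symbols of the pathway were read from 6 lists, of which 93 were listed and 63 tested. Of the 63, 4 were higher in footpad tumors, 1 was lower and 58 did not pass. Among all genes tested, 2.89% were called higher and 0.872% lower. The median log2 fold change of the 63 was 0.37. Every footpad tumor lay above every flank tumor in 27 of them and below in 5, beside 17.5% and 14.9% of all genes tested. With a tumor left out, 0 of the pathway genes were called higher or lower by edgeR without footpad 1, footpad 3 or flank 3. At an unadjusted p under 0.05 and a fold of 2 or more, 13, 12 and 10 were higher and 1, 1 and 3 lower in these fits. The share of all genes at that cut was not counted, so these counts say nothing about the pathway genes in particular. Called higher were 6 without footpad 2, 3 without flank 1 and 3 without flank 2, to be read beside the shares of all genes given above. These were not the same genes each time. Among the genes named here as called, the call was kept in 3 of the 6 omissions for Bmp1, in 2 for Bmpr1b and Pcsk6 and in 1 for Runx2 and Gdf15.

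Among 23 other ligands, only 6 were abundant enough to test, and 1 passed. Gdf15, a stress-induced hormone of the family, was lower in footpad tumors, at 1.37, 1.82 and 1.57 CPM against 6.04, 3.44 and 4.31 CPM (log2 fold change -1.53, SE 0.31, edgeR adjusted p = 0.0400). Its groups did not overlap. The call was kept without flank 2 and lost without each of the other 5 tumors, at an adjusted p of up to 0.146 in edgeR, and on log2(FPKM + 1), where limma gave a log2 fold change of -0.89. Gdf11, the other ligand named for its abundance, had a log2 fold change of 0.12. The 6 had a median of 0.06.

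Of 18 receptor gene symbols, 17 were listed and 15 tested. Bmpr1b, a type I BMP receptor, was higher at 3.61, 1.23 and 4.63 CPM against 0.207, 0.342 and 0.240 CPM (log2 fold change 3.57, SE 0.57, edgeR adjusted p = 0.0234). Its footpad level was lowest in footpad 2, as for Inhba, Inhbb, Bmp2, Bmp4 and Fst. The abundant type I receptor Bmpr1a had a log2 fold change of -0.13, and Eng, an endothelial co-receptor, one of 0.68 (edgeR adjusted p = 0.0713). The list's median was -0.13.

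None of the 12 tested genes of 21 further extracellular antagonists passed in edgeR. All 12 had a positive log2 fold change, as had 8551 of all 17210 genes tested, and the median of the 12 was 0.33. At an unadjusted p under 0.05, 4 were higher, beside 14.8% of all genes tested. Which tumors brought these 12 past the filter on low counts was not examined. Twsg1, twisted gastrulation, which binds BMPs together with chordin, had 0.37 (edgeR adjusted p = 0.0906) and Crim1 had 0.20. Nbl1, a BMP antagonist of the DAN family singled out after its values were seen, had a log2 fold change of 3.03 at an edgeR adjusted p of 0.0665, and DESeq2 called it. It stood at 4.13, 3.68 and 4.65 CPM in footpad tumors against 0.448, 1.01 and 0.0639 CPM in flank tumors, so its groups did not overlap.

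The 15 Smads and their regulators were all tested and none was called, with a median of 0.40. Smurf1, a ubiquitin ligase for Smads, singled out after its values were seen, passed on p alone (log2 fold change 0.92, edgeR adjusted p = 0.0205) but not on size. Smad5 had -0.50 (edgeR adjusted p = 0.116) and the phosphatase gene Ppm1a -0.05. DESeq2 called 2 of the 15 higher, Smad7 and Smad9, and at an unadjusted p under 0.05 edgeR had 7 of the 15 higher and 1 lower at any size, beside the 14.8% and 10.5% of all genes tested.

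Of 10 further target genes 8 were tested, with a median of 1.42. Runx2, a master regulator of bone formation and a BMP target, was higher at 10.5, 3.82 and 6.80 CPM against 1.59, 1.13 and 0.703 CPM (log2 fold change 2.62, SE 0.47, edgeR adjusted p = 0.0298). The Id1 relatives Id3 and Id2 did not pass in edgeR, at log2 fold changes of 1.01 (edgeR adjusted p = 0.0864) and 0.25. DESeq2, which called 6.73% of all genes higher, called Id3 (DESeq2 adjusted p = 0.0125), Id4 and Msx1 of the list besides Runx2. At an unadjusted p under 0.05 in edgeR, 5 of the 8 were higher and 0 lower, beside 14.8% and 10.5% of all genes tested.

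All 7 genes for ligand processing were tested and had positive log2 fold changes, as had 8551 of all 17210 genes tested. The median of the 7 was 1.21, and 2 were called higher, beside 2.89% of all genes tested. Bmp1, a secreted metalloproteinase that cleaves procollagen and chordin and despite its name is no BMP ligand, was higher at 56.3, 64.7 and 71.5 CPM against 28.8, 32.7 and 24.9 CPM (log2 fold change 1.16, SE 0.16, edgeR adjusted p = 0.0154). Pcsk6, a proprotein convertase, was higher at 5.12, 4.42 and 4.39 CPM against 1.67, 1.47 and 1.45 CPM (log2 fold change 1.6, SE 0.26, edgeR adjusted p = 0.0234). Furin, the convertase that cleaves most proforms of the family, had a log2 fold change of 1.21 at an edgeR adjusted p of 0.0517.

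**Figure D4:**
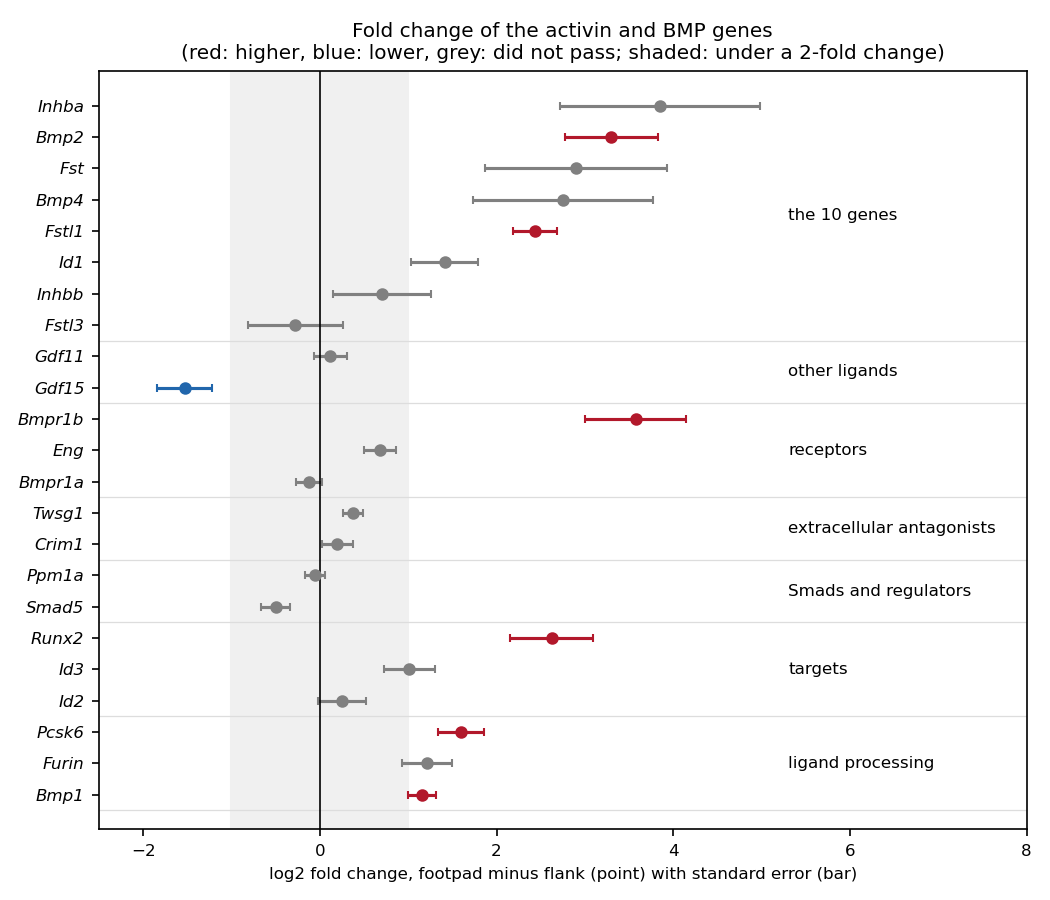
The log2 fold change, footpad minus flank, of the tested genes of the 10 and the other named pathway genes, as points with the standard error as bars, in red where higher, blue where lower and grey where the test was not passed. Inhba at 3.85, which did not pass, and Bmpr1b at 3.57 and Bmp2 at 3.30, which did, lie far to the right. Gdf15 at -1.53 is the gene called lower.

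Differences between tumors of a site were large in several of these genes, and some recurred. Footpad 2 was the lowest footpad tumor for Inhba, Inhbb, Fst, Bmp2, Bmp4 and Fstl3 and the highest for Fstl1, and flank 2 was the highest flank tumor for Inhba, Fst, Fstl1, Bmp2 and Id1. Some of these orders lay within counting error. The intervals of footpad 2 overlapped those of footpad 1 for Bmp2 and Bmp4 and those of footpad 3 for Fstl3. For Bmp2 the intervals of flank 2 and flank 1 overlapped as well.

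**Figure D5:**
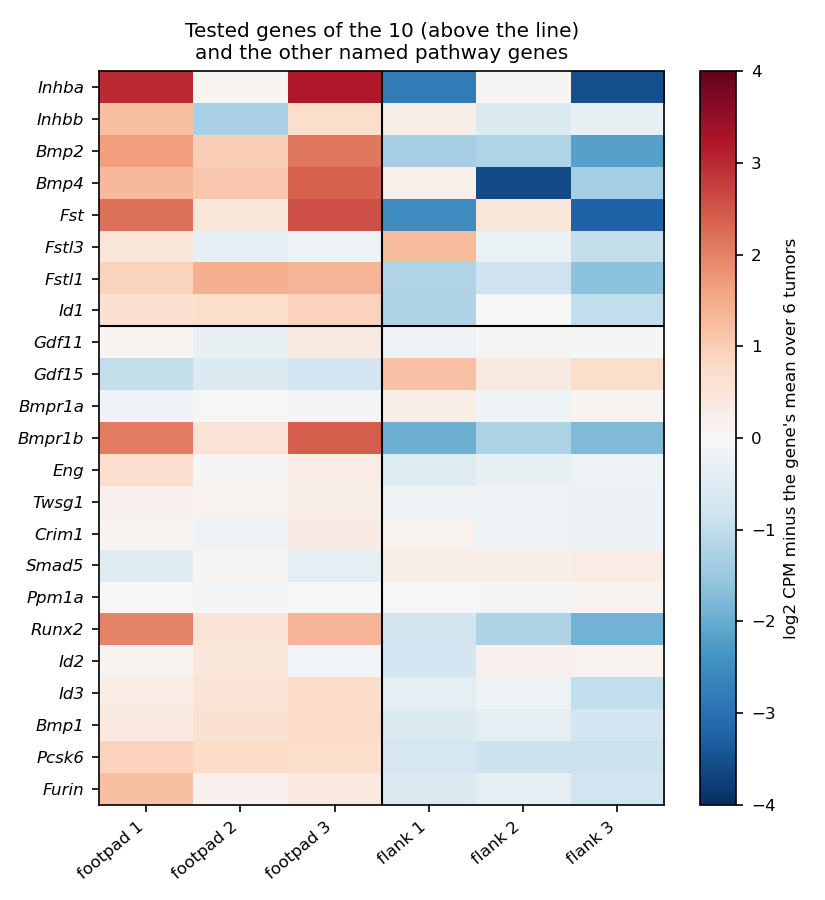
For each gene and tumor, the log2 CPM minus the mean of that gene over the 6 tumors, from blue (below the mean) to red (above it), with the tested genes of the 10 above the horizontal line. Inhba and Fst share the pattern of high footpad 1 and 3, low flank 1 and 3 and values near 0 in footpad 2 and flank 2.

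The genes of the whole table with the most similar profiles were found by the root mean square distance of centred log2 CPM over the 6 tumors. For Fstl1 they were Plb1 (0.145), Zbtb7c (0.152) and Celsr1 (0.215). The nearest to Bmp2 were Srpx2 (0.176), S100a6 (0.268) and Lyve1 (0.281). For Id1, the uncalled gene of the 10 with the lowest adjusted p, they were Gper1 (0.101), Bach2 (0.173) and Vav3 (0.187).

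Some sums of cell type markers also differed between the sites. Those of fibroblast, endothelial and macrophage genes were higher in footpad tumors without overlap, those of cartilage and bone genes lower, and the others overlapped. In whole tumors a change in the number of cells of a type and a change in RNA per cell cannot be told apart. Of 16 fibroblast genes 12 were higher in footpad tumors, beside 2.89% of all genes tested, and none of the 16 was at 0. Their summed level, led by Col3a1, was 3234, 3134 and 4395 CPM in footpad and 147, 520 and 185 CPM in flank tumors. That sum did not overlap between the sites, and in CPM neither did Inhba, Fst, Fstl1, Bmp2, Bmp4 and Id1. Footpad 1 and 2 had similar sums, while Inhba stood there at 26.4 and 3.49 CPM and Fst at 3.50 and 1.06 CPM. Among flank tumors the sum was highest in flank 2. So were Inhba at 3.44, Fst at 1.03, Fstl1 at 47.7, Bmp2 at 0.171 and Id1 at 2.86 CPM. Inhbb and Bmp4 were lowest there, at 6.89 and 0 CPM. What these orders rest on was not tested. In FPKM Fst overlapped, at 0.361 in footpad 2 and 0.387 in flank 2. Of 10 endothelial genes 3 were higher, with sums of 317 to 356 against 177 to 217 CPM, led by Vwf. Of 10 macrophage genes 1 was higher, with sums of 208 to 221 against 151 to 203 CPM, led by Mertk. Mertk alone stood at 112, 79.2 and 85.6 CPM in footpad and 134, 91.9 and 89.6 CPM in flank tumors. It thus ran against the other 9 genes, which had positive log2 fold changes. The sum does not describe them, and its separation is not to be read as theirs. Of the 10, 4 had every footpad tumor above every flank tumor, beside 17.5% of all genes tested. Over all 11 marker lists 16 genes were called higher, a count that became 0 without footpad 1, footpad 3 or flank 3, 4 without flank 1, 22 without footpad 2 and 15 without flank 2.

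The neutrophil sum separated the tumors within a site. It was 377, 7.19 and 183 CPM in footpad tumors and 20.5, 31.2 and 4.76 CPM in flank tumors over 11 genes, led by S100a9. Among footpad tumors it was lowest in footpad 2, as were Inhba and Fst. That order did not hold across the sites. Flank 1 had a higher sum than footpad 2 but less Inhba, at 0.466 against 3.49 CPM, and less Fst, at 0.121 against 1.06 CPM. The keratinocyte sum over 12 genes was 764 CPM in footpad 2, led by Krt10 at 281.7 CPM, and 10.4 to 48.2 CPM in the other footpad tumors and 1.57 to 13.8 CPM in flank tumors. Skeletal muscle, over 12 genes led by Ttn, was 1350 CPM in footpad 2 and 240.5 CPM in flank 2, and 34.0 to 166 CPM in the other 4. Bmp7 was seen in these same 2 tumors, footpad 2 and flank 2. No gene of the neutrophil, keratinocyte and muscle lists was called in edgeR. Of the 9, 10 and 12 tested, 7, 9 and 1 were higher at an unadjusted p under 0.05, beside 14.8% of all genes tested. DESeq2 called Csf3r and Mmp9 of the first list, Flg, Krt1 and Sbsn of the second and none of the third. Without footpad 2, where edgeR called 3.62% of all genes higher, it called Csf3r, Mmp9, Retnlg, S100a8 and S100a9 of the first list.

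The summed level of 10 cartilage and bone markers was 9.29 to 10.4 CPM in footpad and 56.9 to 74.9 CPM in flank tumors, and it was carried by Col2a1 and Col9a1, which were lower in footpad tumors. The other 4 of the 6 tested genes of the list had positive log2 fold changes and did not pass, the median of the 6 was 0.11, and Ibsp was at 0 in all 6 tumors. Adipocyte sums, led by Cfd, were at most 7.30 CPM, and T cell sums, with Cd3d and Cd3g at 0, at most 0.980 CPM. Schwann cell sums, led by Mbp, were 205 to 282 CPM over all 6 tumors. The 10 melanocyte genes, led by Tyrp1, checked the label of the cell line. Their sum was 13847 to 23902 CPM in footpad and 17918 to 29556 CPM in flank tumors. With all 6 tumors none was at an adjusted p under 0.05 in edgeR, or called by DESeq2. In edgeR 1 was lower at an unadjusted p under 0.05. Without footpad 2 edgeR called Tyr lower, beside 1.12% of all genes. The part of each cell type in the values of the 10 genes was not tested.

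Annotated genes overlap 4 of the 10, and the use of strand in the counting is not given in the sources used here, so reads from antisense partners cannot be told apart. The partner B230303A05Rik of Inhba had 11, 0 and 23 reads in footpad tumors and 0, 8 and 0 in flank tumors, Prss57 next to Fstl3 had at most 2 reads in a tumor, and of the partners of Bmp4, Gm15217 had none and Gm15222 had 4 reads in footpad 3. Gm48444 at Inhba and Gm47040 at Fst were not analysed here.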

How the data were processed

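B16F10 tumors of the footpad (n = 3) and the flank skin (n = 3) were sequenced from 1 ug of total RNA, extracted with RNeasy, in TruSeq Stranded Total RNA libraries. The methods speak of tumor cells isolated from the implantation sites and the labels of tumors. The submitters' processing notes name FastQC 0.11.7, Trimmomatic, HISAT2 2.1.0 and mm10, and the counting program, its strand setting and the filter behind the listed genes are not given in the sources used here. The authors deposited read counts and FPKM values per gene, with no column left unused. The 10 genes, the gene lists and the rule for naming genes were chosen with earlier results of these data known. The rule named the 10, every called gene and the 2 of highest mean FPKM of each pathway list, the 3 nearest profiles of each called member and of the uncalled member with the lowest adjusted p, and the top gene of each marker list.

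From the counts, edgeR 4.0.16 (R 4.3.3) fitted the 6 tumors by quasi-likelihood (TMM, filterByExpr) with Benjamini-Hochberg adjustment over 17210 genes. The common biological coefficient of variation was 0.338. The SE is the log2 fold change divided by the square root of F. CPM is TMM-scaled. Count intervals (95%, exact Poisson) and the 3-read floor cover counting error only. Alternatives were DESeq2 1.42.0, limma 3.58.1 on log2(FPKM + 1) and log2(FPKM + 0.1), upper-quartile scaling, no filter, at least 10 counts in every tumor, a replicate block, an adjusted p under 0.1 and each tumor left out. Gene positions are from GENCODE (GRCm38) and promoter windows from RefSeq (GRCm38.p6), matched by symbol for 6 of the 10.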

Additional observations from a re-analysis of the deposited data

How the results depend on the processing

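Of 101 values of the 10 genes under alternatives, 84 kept direction and side of the threshold, 8 passed it newly, 8 lost it and 1 changed sign. The 2 of the 10 genes higher became 5 in DESeq2, 1 with at least 10 counts in every tumor (which left 5 tested and called 3.76% of all genes higher), 1 by limma on log2(FPKM + 1), 0 with the replicate block, 4 at an adjusted p under 0.1 (5.88% of all genes) and 0 to 5 with a tumor left out, while 0 were lower throughout. The 4 pathway genes higher became 14 in DESeq2, 7 with the count minimum, 8 by limma on log2(FPKM + 0.1), 0 with the block, 11 at an adjusted p under 0.1 and 0 to 6 with a tumor left out, and the 1 lower became 0 by limma on log2(FPKM + 1), 0 with the block and 0 to 1 with a tumor left out. The 16 marker genes higher became 25 in DESeq2, 0 with the block and 0 to 22 with a tumor left out, and the 2 lower became 0 with the block and 0 to 3. Without footpad 3 edgeR called 0 genes of the whole table. At an unadjusted p under 0.05 and a fold of 2 or more, 4 of the 10 were higher and 0 lower in that fit. The share of all genes at that last cut was not counted, so the 4 say nothing about the 10 in particular. DESeq2 was not run on 5 tumors.

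Log2 fold changes passed the threshold newly for Inhba in DESeq2 (3.85) and in limma on log2(FPKM + 0.1) (2.96), Fst in DESeq2 (2.91) and Id1 in DESeq2 (1.41), and lost it for Fstl1 with the block (2.45) and Bmp2 by limma on log2(FPKM + 1) (0.37) and with the block (3.26). With a tumor left out, Inhba ran from 3.35 to 5.76, Fst 2.39 to 5.0, Fstl1 2.25 to 2.65, Bmp2 3.0 to 3.55, Bmp4 2.18 to 4.24, Id1 1.18 to 1.88, Inhbb 0.20 to 1.14 and Fstl3 -0.65 to 0.61. Signs changed for Fstl3 (0.61 without flank 1), Gdf11 (-0.059 without footpad 3, up to 0.27 with another tumor left out), Id2 (-0.0063 without flank 1, up to 0.39) and Ppm1a (0.059 and 0.063 by limma on log2(FPKM + 1) and log2(FPKM + 0.1)). List medians ran from 3.03 to 4.51 for fibroblast, 1.89 to 6.74 for keratinocyte, 1.13 to 1.56 for ligand processing and 1.00 to 1.84 for target genes. The cause of these shifts was not tested.

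Same-numbered tumors of the sites did not deviate together (r = 0.054, -0.097 and -0.115), and no tumor was closest to its own number. As no source used here ties a number to a mouse, the numbers were not taken as pairs. With the replicate block, which leaves fewer residual degrees of freedom, 0 genes of the table were called. At an unadjusted p under 0.05 and a fold of 2 or more, 6 of the 10 were higher and 0 lower with the block. The share of all genes at that cut was not counted, so the 6 say nothing about the 10 in particular. Low counts limit Bmp4, Bmp7 and Grem1, and a limma fit with a pseudocount of 1 shrinks genes with FPKM under 1.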
